A study of Homo sapiens with 6 samples.

Results

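The genes described here are 10 targets and partners of the transcription pair YAP and TEAD, chosen by name from the gene column of the deposited table: CYR61 (current symbol CCN1), CTGF (current symbol CCN2), ANKRD1, AXL, AMOTL1, AMOTL2, LATS2, AJUBA, YAP1 and TEAD1. All 10 were present among the 15651 genes of the table, and all 10 were among the 15246 genes that passed the filter on low values (4 or more normalized counts in 3 or more of the 6 libraries). RNA sequencing had been performed on MDA-MB-231 cells, an established human line of triple-negative breast cancer, the breast cancer class without estrogen receptor, progesterone receptor or HER2. In 3 libraries the cells had received the solvent DMSO, and in 3 libraries BRL-50481, a selective inhibitor of the cAMP-degrading enzyme phosphodiesterase 7. The protocol text and the study's paper give 50 μM BRL-50481 for 72 h, whereas the treatment tag of the same samples gives 5 μM and 48 h. Every library came from this 1 cell line, and the labels name no second agent and no altered gene.

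YAP and its relative TAZ (encoded by WWTR1) are coactivators that have no DNA-binding domain of their own and reach promoters and enhancers through TEAD factors. The Hippo kinases MST1/2 and LATS1/2 phosphorylate YAP and TAZ, which are then held in the cytoplasm or degraded, and several YAP targets, among them LATS2 and the angiomotins AMOTL1 and AMOTL2, encode proteins that restrain YAP in turn. In breast cancer cells, YAP and TAZ are known for roles in growth, survival and invasion, and cAMP signaling is a known activator of LATS kinases.

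From 30750573 to 33446984 reads lay on genes in each library. The spread of the log2 values around their group mean, over the 12251 genes whose mean was 50 or more, was largest in DMSO replicate 1 (SD 0.142) and ranged from 0.0791 to 0.119 in the other 5 libraries. DMSO replicate 1 also differed from DMSO replicates 2 and 3 by transcript length, so values that moved without it are given both ways. All 6 markers expected in MDA-MB-231 cells (VIM, CD44, ZEB1, EGFR, CAV1 and MSN) were present, with a summed normalized count of 137681 to 139382 in DMSO and, after treatment, 195127 to 197604. Of 7 markers that the line lacks or holds at a low level, 5 were listed (PGR, GATA3, FOXA1, CDH1 and TP63), with sums of 244 to 303 in DMSO and, after treatment, 403 to 447, while ESR1 and KRT5 were not analysed here. Within this sum the genes differed: GATA3 (log2 fold change 0.57), CDH1 (1.39) and TP63 (2.06) rose, FOXA1 (-1.02) fell, and PGR did not pass the filter. Of 8 markers of other cells, 4 were listed (PECAM1, PDGFRB, COL1A1 and COL1A2), with sums of 951 to 1009 in DMSO and, after treatment, 1218 to 1372, while the other 4 were not analysed here. Here PECAM1 (0.48), PDGFRB (0.33) and COL1A2 (2.42) rose, and COL1A1 (0.005) did not pass the test. The part of these differences in the results below was not tested. In bulk RNA, a change in the share of cells that express a gene and a change in RNA per cell cannot be told apart. PDE7A, whose product BRL-50481 inhibits, averaged 406 ± 2.06 and, in the treated cells, 298 ± 40.6 normalized counts (SD, n = 3 each).

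The core letters bound by TEAD factors, GGAATG or on the other strand CATTCC, were searched in RefSeq promoters on GRCh38.p14, each reaching from 250 bases before a transcript start to 50 bases after it. Of the 10 genes, 8 had an entry (11 promoters in all, since AJUBA, AMOTL2 and AXL have alternative starts), and CYR61 and TEAD1 had none. The letters lay in 7 of the 11 promoters, and in 7 of the 8 genes, beside 14.0% of all 35116 promoters and 16.7% of all 27305 genes in the table. They were not found in the only AMOTL1 window, which lies at an internal start, so the region before its gene start was not searched. CTGF held 3 matches, beginning 169, 104 and 95 bases before the start, where 0.128% of all promoters hold 3 or more. ANKRD1 held 2, beginning 220 and 128 bases before the start, where 1.37% of all promoters hold 2 or more. The other matches were single: 59 bases before an internal start in AJUBA, 69 before an internal start in AMOTL2, 212 before an internal start in AXL, 162 before the start in YAP1, and at base 10 after the start in LATS2. The AP-1 letters TGANTCA were found once, in ANKRD1, against 7.71% of all promoters, and the full cAMP response element TGACGTCA was in none of the 11, against 1.85% of all. A match in these letters is a description of the sequence, and binding was not measured. The 250 bases before the start are shown for CTGF and ANKRD1, the genes with more than 1 match, and 30 bases around the match for the 5 others, 5′ to 3′ on the strand of the gene, with the TEAD letters in capitals.
CTGF upstream, chr6:131951373-131951622, minus strand: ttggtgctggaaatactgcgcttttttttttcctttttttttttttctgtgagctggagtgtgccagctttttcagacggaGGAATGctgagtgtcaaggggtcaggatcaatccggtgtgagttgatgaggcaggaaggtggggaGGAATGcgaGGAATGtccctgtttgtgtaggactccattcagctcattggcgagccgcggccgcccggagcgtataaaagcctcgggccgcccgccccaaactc
ANKRD1 upstream, chr10:90921088-90921337, minus strand: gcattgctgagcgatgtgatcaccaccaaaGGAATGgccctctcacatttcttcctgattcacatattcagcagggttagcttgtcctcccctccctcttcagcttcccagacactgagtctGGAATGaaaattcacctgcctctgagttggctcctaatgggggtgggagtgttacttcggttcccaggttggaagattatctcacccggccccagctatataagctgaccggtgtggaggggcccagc
AJUBA window, chr14:22976884-22976913, minus strand: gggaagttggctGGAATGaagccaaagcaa
AMOTL2 window, chr3:134374499-134374528, minus strand: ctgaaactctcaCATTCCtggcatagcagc
AXL window, chr19:41226531-41226560, plus strand: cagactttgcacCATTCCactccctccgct
YAP1 window, chr11:102110273-102110302, plus strand: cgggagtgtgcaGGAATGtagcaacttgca
LATS2 window, chr13:21061560-21061589, minus strand: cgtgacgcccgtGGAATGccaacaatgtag

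The comparison of BRL-50481 with DMSO asked how the genes responded to the PDE7 inhibitor. The 10 genes did not move together. CYR61, CTGF and ANKRD1 fell, AJUBA, AMOTL2 and AXL rose, and AMOTL1, LATS2, YAP1 and TEAD1 did not pass the test. The changes were small: CYR61 fell by 28.4% and AJUBA gained 16.4%, the largest fall and rise among the 10 genes with all libraries and the authors' size factors. These ranks did not hold throughout, since with quantile normalization CYR61 had a log2 fold change of -0.25 and CTGF -0.37, while AXL had 0.32 and AJUBA 0.25, and without DMSO replicate 1 AMOTL1 (0.27) exceeded AJUBA (0.21). Of the 10 genes, 3 rose and 3 fell at an adjusted p under 0.05 (limma on log2 of the normalized count plus 1), beside 28.9% of all 15246 genes that rose and 29.8% that fell, so the share called among the 10 genes was close to that of the background. All 10 were well expressed, and among the 6576 genes whose mean was 1000 or more, 29.2% rose and 40.5% fell (69.7% in either direction). The median log2 fold change of the 10 genes was 0.09, and that of all genes tested 0.015. For scale, the median absolute log2 fold change was 0.33 over all genes and 0.26 over the genes whose mean was 1000 or more, and CYR61 and CTGF exceeded both. The groups did not overlap for 6 of the 10 genes, the same 6 that passed the test, beside 31.9% of all genes with BRL-50481 above DMSO and 32.3% with BRL-50481 below (64.2% in either direction).

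**Figure D1:**
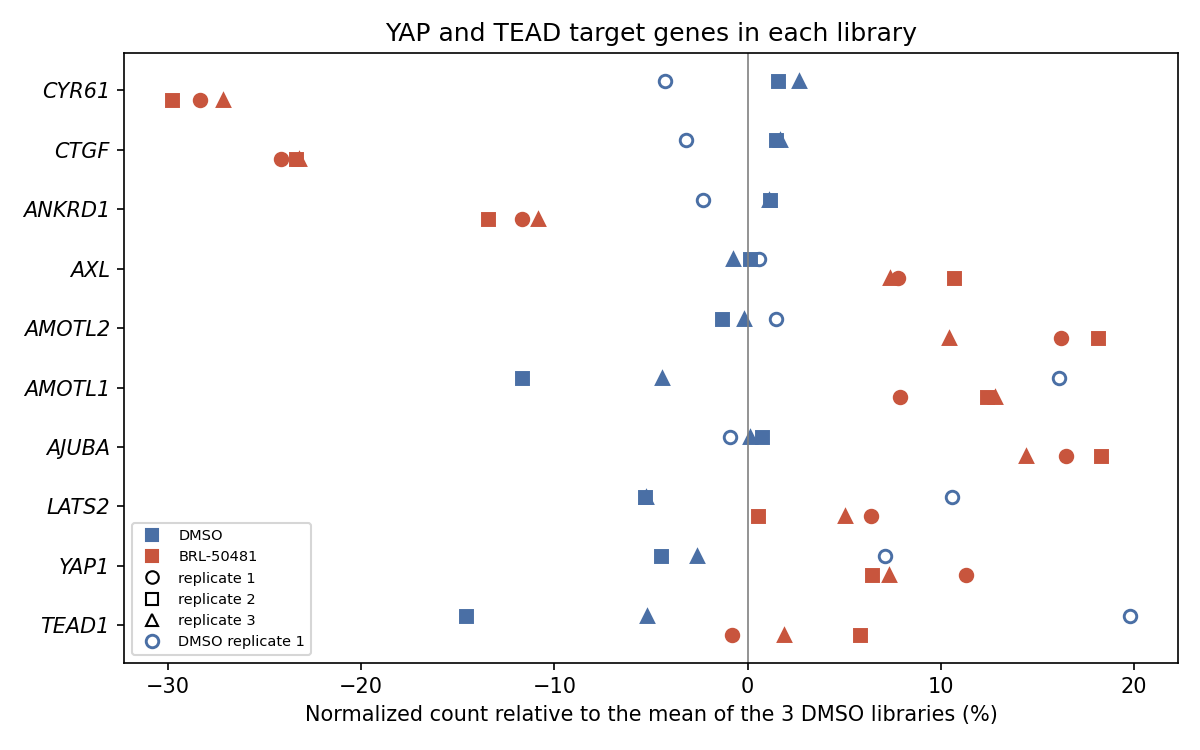
Normalized count of each of the 10 genes in each of the 6 libraries, as the percent difference from the mean of the 3 DMSO libraries (vertical line at 0), with color for the group, marker shape for the replicate and an open circle for DMSO replicate 1. For CYR61, CTGF and ANKRD1 all 3 BRL-50481 libraries lay below all 3 DMSO libraries, and for TEAD1, AMOTL1 and LATS2 DMSO replicate 1 lay above every other library.

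CYR61 and CTGF encode secreted matricellular proteins of the CCN family, which bind integrins and growth factors and are the most widely used readouts of YAP activity. CYR61 lies at chr1:85580761-85584589 on the plus strand (hg38, GENCODE) with a canonical transcript of 2278 bases. Its normalized counts were 95113, 100968 and 102053 in the DMSO libraries and 71185, 69780 and 72409 in the BRL-50481 libraries. The groups were far apart, with the highest BRL-50481 library well under the lowest DMSO library. The mean went from 99378 ± 3734 to 71125 ± 1316 (SD, n = 3 each), and CYR61 fell by 0.48 on the log2 scale (SE 0.0451, 95% interval -0.58 to -0.38; limma, adjusted p = 1.29e-06). It was the 6th most abundant RNA of the table by mean normalized count.

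CTGF lies at chr6:131948176-131951372 on the minus strand, with a canonical transcript of 2338 bases. CTGF had normalized counts of 8637, 9055 and 9074 in DMSO and 6768, 6834 and 6848 in BRL-50481. The 3 treated libraries lay close together and below every DMSO library. CTGF fell by 23.6%, from 8922 ± 247 to 6817 ± 42.7 (SD, n = 3 each), with a log2 fold change of -0.39 (SE 0.0444, 95% interval -0.48 to -0.29; limma, adjusted p = 7.6e-06). Within a library, the log2 ratio of CYR61 to CTGF was lower by 0.09 in BRL-50481 (3.48 ± 0.0153 in DMSO and 3.38 ± 0.0272 in the treated libraries, SD, n = 3 each), with no overlap between the groups. The exact two-sided permutation p was 0.1, the smallest that 3 libraries against 3 can give (0.25 after adjustment over 5 ratios of paralogues), so the design could not place this difference under 0.05.

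ANKRD1 encodes a cardiac ankyrin repeat protein of the nucleus and the sarcomere that responds to mechanical load, and lies at chr10:90912096-90921087 on the minus strand, with a canonical transcript of 1790 bases. Its normalized counts were 15285, 15825 and 15816 in DMSO and 13813, 13538 and 13948 in BRL-50481. Here too the groups did not overlap, although the gap was narrower. ANKRD1 fell from 15642 ± 309 to 13766 ± 209 (SD, n = 3 each), with a log2 fold change of -0.18 (SE 0.0425, 95% interval -0.28 to -0.09; limma, adjusted p = 0.00223). With the trend on transcript length removed from every library, its log2 fold change was -0.10, still past the test. With DMSO replicate 1 left out as well, it was -0.077 (limma, adjusted p = 0.0275).

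AXL encodes a receptor tyrosine kinase of the TAM family, named for TYRO3, AXL and MERTK, that binds the ligand GAS6 and is known for roles in invasion and drug resistance of breast cancer cells. It lies at chr19:41219223-41261766 on the plus strand, with a canonical transcript of 4717 bases. AXL had normalized counts of 45293, 45079 and 44673 in DMSO and 48529, 49831 and 48328 in BRL-50481. Every treated library lay above every DMSO library. AXL rose by 8.61%, from 45015 ± 315 to 48896 ± 816 (SD, n = 3 each), with a log2 fold change of 0.12 (SE 0.0411, 95% interval 0.03 to 0.21; limma, adjusted p = 0.0235). The direction held when any library was left out, but the call was lost without BRL-50481 replicate 1, 2 or 3 (log2 fold changes 0.12, 0.11 and 0.13) or without DMSO replicate 3 (0.11), and with the length trend removed (0.07; limma, adjusted p = 0.0661).

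AMOTL1 and AMOTL2 encode angiomotin-like proteins of cell junctions that bind YAP and keep it out of the nucleus. AMOTL2 lies at chr3:134355347-134375479 on the minus strand, with a canonical transcript of 4868 bases, and shares exon bases on its strand with the pseudogene RPL39P5. Its normalized counts were 3403, 3310 and 3348 in DMSO and 3899, 3963 and 3704 in BRL-50481. All treated libraries lay above all DMSO libraries. AMOTL2 rose by 14.9%, from 3354 ± 46.9 to 3855 ± 135 (SD, n = 3 each), with a log2 fold change of 0.20 (SE 0.0493, 95% interval 0.09 to 0.31; limma, adjusted p = 0.00348).

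AMOTL1 lies at chr11:94706431-94876748 on the plus strand, with a canonical transcript of 8980 bases. AMOTL1 had normalized counts of 4759, 3620 and 3916 in DMSO and 4421, 4607 and 4622 in BRL-50481. DMSO replicate 1 was above all 3 treated libraries, and the other DMSO libraries were below them. The log2 fold change was 0.16 (SE 0.0800, 95% interval -0.01 to 0.33; limma, adjusted p = 0.102), with means of 4098 ± 591 and 4550 ± 112 (SD, n = 3 each). Without DMSO replicate 1 it was 0.27 and passed the test (limma, adjusted p = 5.1e-07), and with the length trend removed it was -0.01. The log2 ratio of AMOTL2 to AMOTL1 was higher by 0.04 in BRL-50481 (SE 0.114, n = 3 each; exact two-sided permutation p = 0.8, adjusted 0.9), and without DMSO replicate 1 it was -0.06.

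AJUBA encodes a LIM-domain adaptor that binds LATS kinases at cell junctions and restrains them. It lies at chr14:22971177-22982551 on the minus strand, with a canonical transcript of 4168 bases, and shares exon bases on its strand with the gene ENSG00000259132. AJUBA had normalized counts of 6797, 6911 and 6868 in DMSO and 7988, 8113 and 7847 in BRL-50481. The spread within each group was small and the groups did not overlap. AJUBA rose from 6859 ± 57.7 to 7983 ± 133 (SD, n = 3 each), with a log2 fold change of 0.22 (SE 0.0435, 95% interval 0.12 to 0.31; limma, adjusted p = 0.000766), and remained past the test in each of 16 alternative analyses, as did CYR61, CTGF, ANKRD1 and AMOTL2.

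LATS2 encodes a kinase that phosphorylates YAP, and lies at chr13:20973036-21061586 on the minus strand, with a canonical transcript of 5546 bases. LATS2 had normalized counts of 1932, 1655 and 1655 in DMSO and 1858, 1757 and 1835 in BRL-50481. DMSO replicate 1 was the highest of the 6 libraries, and the other DMSO libraries were the lowest. The log2 fold change was 0.06 (SE 0.0678, 95% interval -0.09 to 0.21; limma, adjusted p = 0.468), and 0.13 without DMSO replicate 1 (limma, adjusted p = 0.0230). The log2 ratio of LATS2 to its paralogue LATS1 was lower by 0.04 in BRL-50481 (SE 0.0695, n = 3 each; exact two-sided permutation p = 0.9, adjusted 0.9), and was higher by 0.027 without DMSO replicate 2.

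YAP1, which encodes YAP, lies at chr11:102110447-102233424 on the plus strand, with a canonical transcript of 5401 bases. Its normalized counts were 11573, 10320 and 10522 in DMSO and 12028, 11501 and 11596 in BRL-50481. The groups overlapped through DMSO replicate 1 alone, which lay between the treated libraries. The log2 fold change was 0.12 (SE 0.0514, 95% interval 0.01 to 0.23; limma, adjusted p = 0.0652), with means of 10805 ± 673 and 11709 ± 281 (SD, n = 3 each). Without DMSO replicate 1 it was 0.17 (limma, adjusted p = 9.41e-05), and with the length trend removed 0.04 (limma, adjusted p = 0.290). WWTR1, which encodes TAZ, rose by 0.22 on the log2 scale (limma, adjusted p = 0.00541). The log2 ratio of YAP1 to WWTR1 was lower by 0.10 in BRL-50481 (SE 0.0194, n = 3 each; exact two-sided permutation p = 0.1, adjusted 0.25), with no overlap between the groups.

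TEAD1, which encodes a DNA-binding partner of YAP, lies at chr11:12674421-12944737 on the plus strand, with a canonical transcript of 9417 bases, the longest of the 10. TEAD1 had normalized counts of 11772, 8393 and 9317 in DMSO and 9749, 10400 and 10014 in BRL-50481. DMSO replicate 1 was above, and DMSO replicates 2 and 3 below, all 3 treated libraries. The log2 fold change was 0.05 (SE 0.0915, 95% interval -0.15 to 0.24; limma, adjusted p = 0.680). It was 0.18 without DMSO replicate 1, past the test (limma, adjusted p = 0.000102), -0.06 without DMSO replicate 2, and -0.13 with the length trend removed, also past the test (limma, adjusted p = 0.0217). With both DMSO replicate 1 left out and the length trend removed it was -0.07 (limma, adjusted p = 0.0760), so these libraries gave no stable direction for TEAD1. The log2 ratio of TEAD1 to TEAD4 was higher by 0.33 in BRL-50481 (SE 0.213, n = 3 each; exact two-sided permutation p = 0.4, adjusted 0.667), and this difference was 0.53 without DMSO replicate 1 and 0.17 without DMSO replicate 2.

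**Figure D2:**
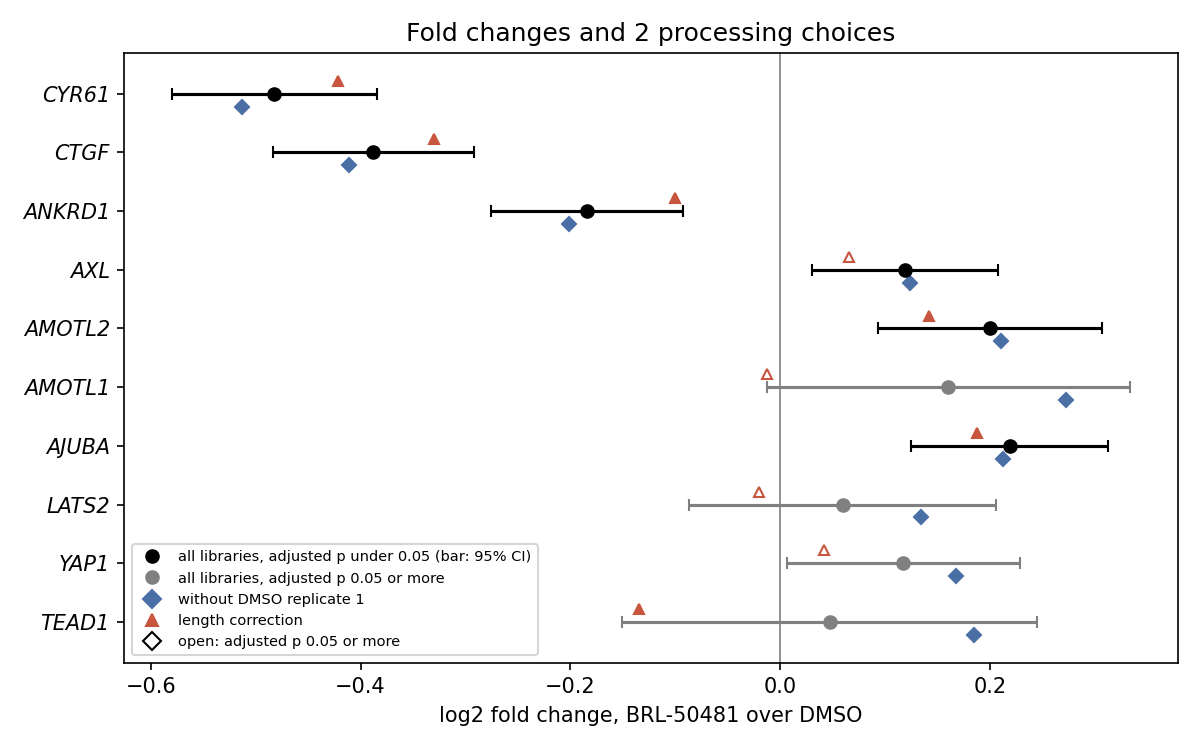
Log2 fold change of BRL-50481 over DMSO for each of the 10 genes, from all 6 libraries (circles with 95% intervals), with DMSO replicate 1 left out (diamonds) and with the trend on transcript length removed (triangles), where gray circles and open symbols did not pass the test. CYR61, CTGF and ANKRD1 stay below 0 and AJUBA and AMOTL2 above 0 in each, while TEAD1, AMOTL1 and LATS2 lie on either side of 0.

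The dependence on DMSO replicate 1 followed transcript length. Among the 10 genes, the 3 that fell had canonical transcripts of 1790 to 2338 bases, the 3 that rose had 4168 to 4868 bases, and the 4 that did not pass the test had 5401 to 9417 bases. Log2 of DMSO replicate 1 minus the mean of DMSO replicates 2 and 3 was 0.41 for TEAD1, 0.34 for AMOTL1, 0.22 for LATS2 and 0.15 for YAP1. It was between -0.09 and 0.03 for the 6 genes with transcripts under 5000 bases. Genes at large had the same order: the median of this difference was -0.155 over 2895 genes with transcripts under 2000 bases, -0.018 over 5853 genes from 2000 to under 5000 bases and 0.165 over 3329 genes of 5000 bases or more. The median log2 fold change of BRL-50481 over DMSO in these length classes was -0.147, -0.036 and 0.11, so length also moved with the treatment. The part of transcript length in the results was not tested. Without DMSO replicate 1, 7 of the 10 genes rose and 3 fell, beside 32.0% and 32.4% of all genes. With the length trend removed, 2 rose (AJUBA and AMOTL2) and 4 fell (CYR61, CTGF, ANKRD1 and TEAD1), beside 30.7% and 32.8% of the 14736 genes with a length, and with both, 2 rose and 3 fell, beside 31.5% and 33.1%.

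**Figure D3:**
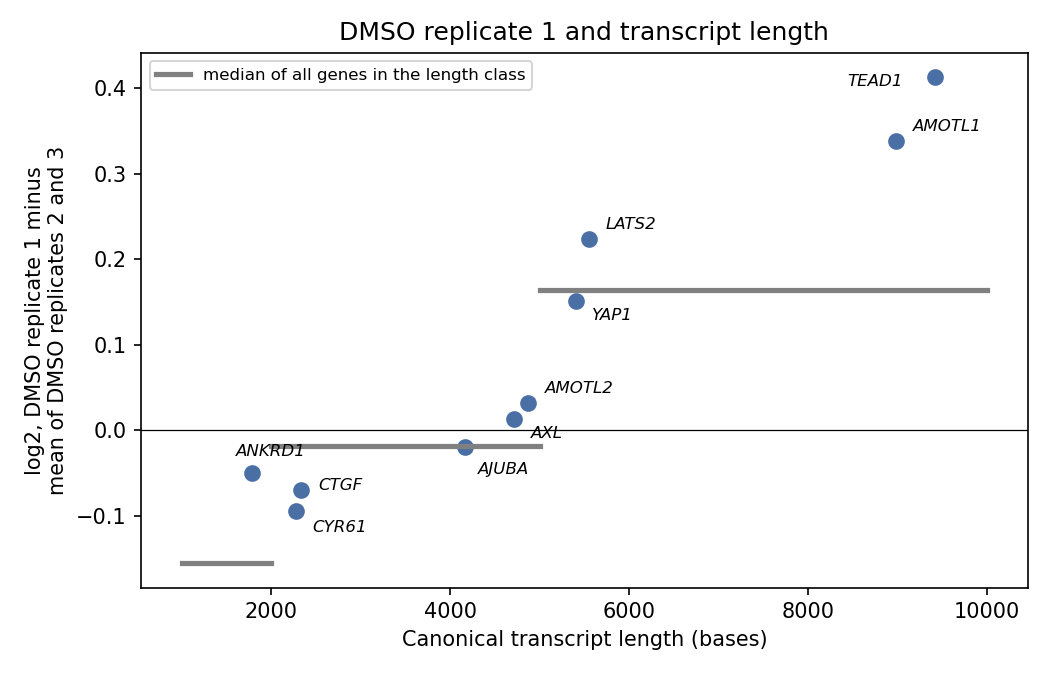
Log2 of the normalized count in DMSO replicate 1 minus the mean of DMSO replicates 2 and 3, against the canonical transcript length in bases, for the 10 genes (points) and as the median of all genes in each of 3 length classes (bars). The 4 genes with transcripts over 5000 bases lie at 0.15 to 0.41, and the other 6 lie near 0.

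Divided by transcript length, the mean normalized counts spanned a wide range of levels, with the same order of genes in both groups. CYR61 was highest, at 43625 normalized counts per kilobase in DMSO and 31222 in BRL-50481. AXL followed at 9543 and 10366, then ANKRD1 at 8739 and 7691, and CTGF at 3816 and 2916. These 4 genes stood above the other 6 in both groups. YAP1 had 2001 and 2168 normalized counts per kilobase and AJUBA 1646 and 1915. TEAD1 had 1044 and 1068, AMOTL2 689 and 792, AMOTL1 456 and 507, and LATS2 315 and 328. In both groups, the libraries of each gene did not overlap with those of its neighbour in this order. Among paralogues, WWTR1 stood at 775 and 900 normalized counts per kilobase, below YAP1, and LATS1 at 203 and 216, below LATS2. In BRL-50481, TEAD1 lay above the other TEAD genes in every library. In DMSO it overlapped with TEAD3, at 1250, 891 and 989 against 894, 949 and 936 normalized counts per kilobase, so their order there rested on DMSO replicate 1. TEAD3 had means of 926 and 847, TEAD2 of 680 and 341 and TEAD4 of 386 and 317.

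**Figure D4:**
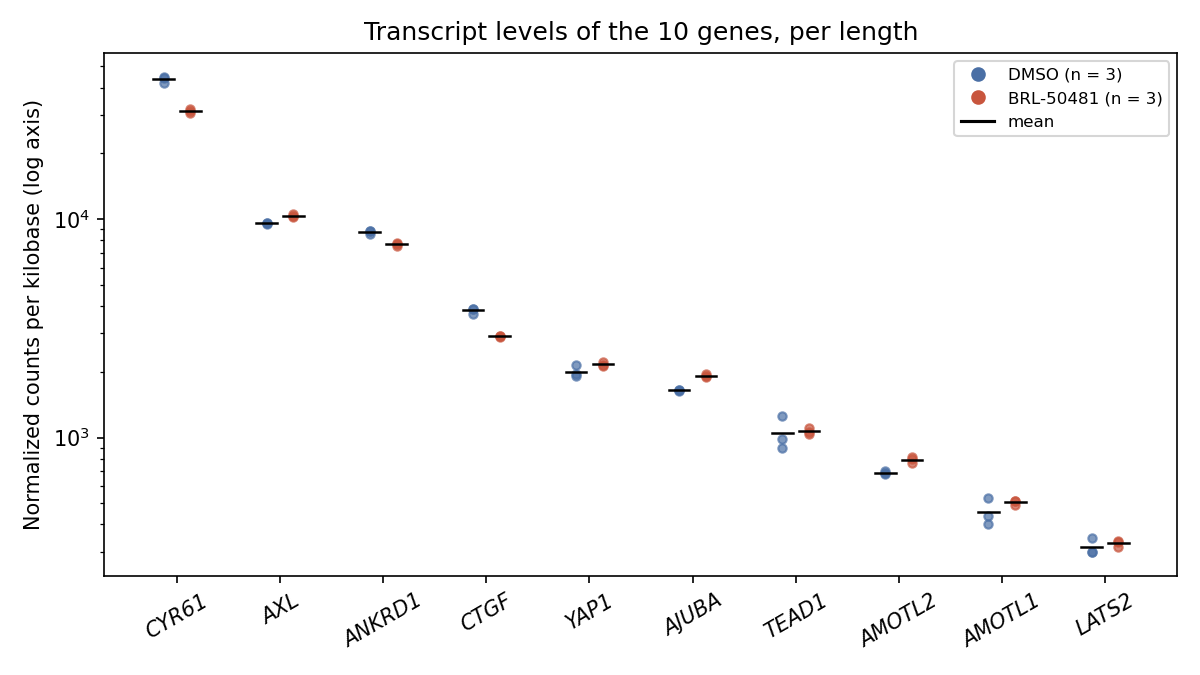
Normalized count per kilobase of canonical transcript (log axis) for the 10 genes in the 3 DMSO and 3 BRL-50481 libraries (points), with group means as horizontal lines. The order from CYR61 to LATS2 is the same in both groups, and the distance between CYR61 and AXL is smaller in BRL-50481.

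Other genes of the pathway were described in lists, each by its counts at the same threshold and its median, beside 28.9% of all genes higher, 29.8% lower and a median log2 fold change of 0.015 over all genes. The lists share members with the 10 genes where these belong to them. Of 28 further genes widely used as targets of YAP, TAZ and TEAD, 19 rose, 8 fell and GLI2 alone did not pass the test, with a median of 0.35. The largest rises were in DOCK5, a guanine nucleotide exchange factor for Rac (log2 fold change 1.08), in the membrane repair protein MYOF (0.95, from 14292 ± 1742 to 27397 ± 327, SD, n = 3 each), in the RNA-binding protein RBMS3 (0.90), in the matrix protein TGFBI (0.88) and in CCDC80 (0.84). The largest falls were in FSTL3, a secreted activin antagonist (-1.33), in IGFBP3, a binding protein of insulin-like growth factors (-1.23, from 7341 ± 343 to 3120 ± 64.7, SD, n = 3 each), and in the stress gene GADD45A (-0.91). Among the most abundant, the matrix protein THBS1 rose by 0.32, and tissue factor F3 had -0.10, just past the test (limma, adjusted p = 0.0479). The call of F3 was lost without any 1 of the BRL-50481 replicates, without DMSO replicate 2 or 3 and with the length trend removed (-0.044), and its value was 0.0066 with quantile normalization. CYR61 and CTGF thus fell while most of this list rose. The count of this list that fell was 5 in place of 8 when BRL-50481 replicate 1 or 3 was left out, and the count that rose was 19 with DMSO replicate 1 left out and the length trend removed.

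The coactivators, TEAD factors, VGLL cofactors and angiomotins had 11 of 13 members tested (VGLL1 and VGLL2 were not analysed here), of which 2 rose and 3 fell, with a median of -0.09. The genes that rose were WWTR1 and AMOTL2, and those that fell were TEAD2, TEAD4 and VGLL4. TEAD2 fell by 0.99 on the log2 scale, from 1480 ± 129 to 741 ± 17.0 (SD, n = 3 each; limma, adjusted p = 1.4e-07), which was the largest change among the TEAD genes. TEAD4 fell by 0.28 and VGLL4 by 0.14. Without DMSO replicate 1, 5 of this list rose and 4 fell, and with the length trend removed 2 rose and 5 fell. The number that fell was 2 without BRL-50481 replicate 1 or 3 or DMSO replicate 2 or 3.

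The Hippo kinases, which restrain YAP and TAZ, and their upstream regulators had 20 genes tested, of which 11 rose, 1 fell and 8 did not pass the test, with a median of 0.16. MAP4K4, a kinase that can phosphorylate LATS kinases, had the largest change, a log2 fold change of 1.24 (from 11192 ± 867 to 26313 ± 491, SD, n = 3 each; limma, adjusted p = 3.09e-09). The protocadherin FAT4 rose by 0.96. Its ligand DCHS1, at a low level (10.3 and 21.5 normalized counts), had 0.98 (limma, adjusted p = 0.0164), a call that was lost without BRL-50481 replicate 3 (0.84), with quantile normalization (0.75) and with the length trend removed (0.78). The scaffold WWC1 (KIBRA) rose by 0.65, DLG5 by 0.64, the kinase TAOK1 by 0.53 and the phosphatase PTPN14 by 0.46, whereas RASSF1, which binds the MST kinases, fell by 0.74. Neither LATS1, LATS2 nor the MST genes STK3 and STK4 passed the test. Without DMSO replicate 1, LATS1 had 0.20 and passed the test (limma, adjusted p = 0.00242), as LATS2 did. The number that rose was 17 without DMSO replicate 1, 7 without BRL-50481 replicate 3 and 9 with the length trend removed.

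Of 11 LIM adaptors and subunits of the STRIPAK phosphatase complex, which restrain the Hippo kinases, 3 rose and 3 fell, with a median of 0.07. AJUBA was one of the genes that rose, and so was SLMAP (0.57), a STRIPAK subunit that recruits MST kinases. The AJUBA relative WTIP fell by 0.83 on the log2 scale and the STRIPAK subunit STRN4 by 0.36. Without DMSO replicate 1, 6 rose and 4 fell, and with the length trend removed 3 rose and 5 fell.

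In the CCN family, 4 of 6 genes were listed, and 3 of them fell, with a median of -0.43. NOV (CCN3) joined CYR61 and CTGF, with a log2 fold change of -1.36 (from 976 ± 34.8 to 379 ± 19.8, SD, n = 3 each; limma, adjusted p = 1.34e-08). WISP2 (CCN5), at a low level (22.8 and 20.4 normalized counts), had -0.15 and did not pass the test (SE 0.421; limma, adjusted p = 0.780). NOV had no matched transcript length and was not in the fit with the length trend removed, where 2 of this family fell. Among the TAM receptors and their ligands, AXL and the ligand GAS6 (0.23) rose, TYRO3 (-0.42) and MERTK (-0.30) fell, and the ligand PROS1 did not pass the test. Without any 1 of the 3 BRL-50481 replicates or DMSO replicate 3, 1 gene of this list rose in place of 2.

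SRF and its cofactors of the MRTF family control actin and contractile genes, and CYR61, CTGF and ANKRD1 are also known to respond to them. Of 18 genes of this list, 8 rose, 5 fell and 5 did not pass the test, with a median of 0.14. The abundant FLNA (0.075) was among those that did not pass. FLNA passed as a rise without DMSO replicate 1 (0.14) and with quantile normalization (0.27), but as a fall with the length trend removed (-0.087). SRF itself fell by 0.74 on the log2 scale and MKL1, which encodes an MRTF, by 0.35, while the relative MKL2 rose by 0.93. The smooth muscle genes CNN1 (-2.27, 14.9 and 2.31 normalized counts) and TAGLN (-0.63) fell at low levels, and FHL2 fell by 0.26. CALD1 rose by 0.73, and the abundant actins ACTB (0.27) and ACTG1 (0.29) also rose. So did the contractile genes MYL9 (0.42), TPM4 (0.24), CNN2 (0.19) and TPM1 (0.17), while ACTA2 (0.19) and TPM2 (-0.06) did not pass the test.

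**Figure D5:**
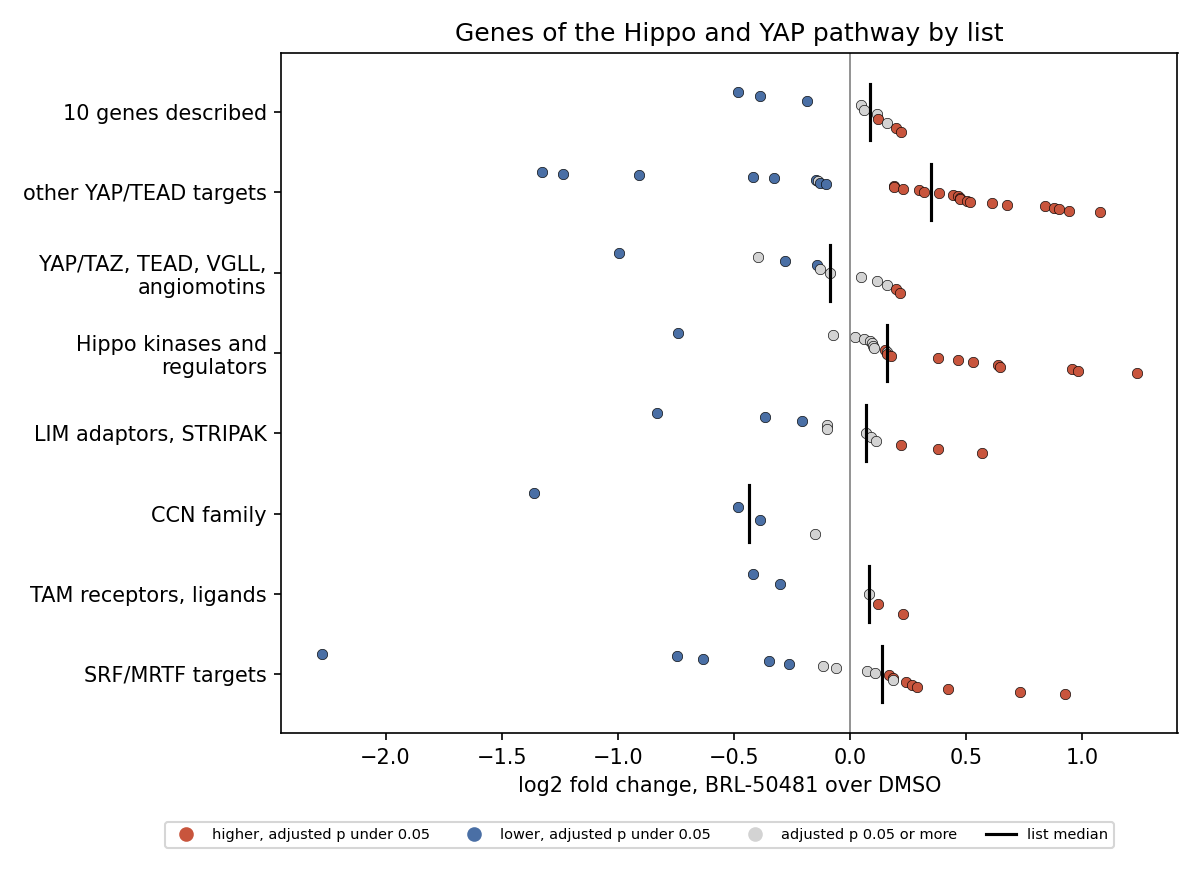
Log2 fold change of BRL-50481 over DMSO for every tested gene of the 10 genes described and of 7 lists of pathway genes (points, colored by the call at an adjusted p under 0.05), with the median of each list as a vertical bar. The further YAP and TEAD targets have the highest median, 0.35, and the CCN family the lowest, -0.43.

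The genes whose profile over the 6 libraries was most like that of CYR61, by the root mean square difference of log2 values centered on their mean, were GATAD2A (0.0157) and LINC00998 (0.0158), out of 11455 genes whose mean was 100 or more. For CTGF they were CTBP2 (0.0142), SLC35A2 (0.0158) and LRRC59 (0.0159). None of these 5 is on the lists above. Their log2 fold changes lay between -0.47 and -0.37, and the likeness is given as a description.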

How the data were processed

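MDA-MB-231 cells given DMSO or BRL-50481 were compared by RNA sequencing (3 libraries each, grouped by the labels). Nothing in the labels ties the libraries to separate cultures beyond the design's mention of biological replicates, so p-values measure the spread between these libraries, which may be technical. The labels describe oligo-dT selection with a strand-specific kit and the series record describes ribosomal RNA depletion; which applies was not settled.

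According to the study's Methods and the submitters' processing notes, the authors aligned single-end reads to hg38 with STAR 2.7.1a, counted them per gene with HTSeq in reverse-strand mode on the UCSC annotation, and normalized with DESeq2 1.28. The signal deposited for a gene in a library is its normalized count, the count over the size factor of that library, and the deposited mean signal was not used. The deposited log2 fold change and its error, the test statistic (a score) and the deposited p-value columns are the authors' own comparison and were not used. All values in each library were multiples of a fixed step (tolerance 0.01 read), from which the depth of 30750573 to 33446984 reads was taken.

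The main test was that of limma 3.58.1 under R 4.3.3 (lmFit, then eBayes with its trend option) on log2(normalized count + 1), over 15246 genes with 4 or more normalized counts in 3 or more libraries (405 left out), with Benjamini-Hochberg adjustment over all genes tested and calls at 0.05. Fold changes are on this scale, which understates changes of low genes. Standard errors and 95% intervals are limma's. Ratios of paralogues within a library were compared by exact permutation. Lengths and coordinates come from the canonical transcripts of GENCODE on hg38 (15105 of 15651 genes matched), and promoters from RefSeq. The length correction removed a loess trend (span 0.5) on log transcript length from each library's deviations from the gene means over all 6 libraries. It thus also removed differences between the groups that followed length. Where DMSO replicate 1 was left out as well, it was left out after the correction. The limma step was tested on simulated data.

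The 10 genes and the lists were chosen with earlier results of these data known. Named beside the 10 genes are, per list, up to 8 called genes with an absolute log2 fold change over 0.5 and the 3 most abundant, the paralogues of the ratios, PDE7A and the 3 genes most like CYR61 and CTGF. Some genes that this rule names are not reported here. VGLL4, TYRO3, PROS1, WISP2, MKL1, GLI2, STK3 and STK4 were named after their values were seen, to complete small counts. MYL9, TPM1, TPM2, TPM4, CNN2, FHL2 and ACTA2 were also named after their values were seen, so that both directions are given. Alternatives were other pseudocounts, filters and normalizations, limma without a trend, a replicate block, the length correction and each library left out. Leaving out DMSO replicate 1 together with the length correction was chosen after seeing the data.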

Additional observations from a re-analysis of the deposited data

How the results depend on the processing

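CYR61, CTGF, ANKRD1, AMOTL2 and AJUBA kept their direction and passed the test in all 16 alternatives run, AXL passed in 9, YAP1 in 4, AMOTL1 and TEAD1 in 2 each and LATS2 in 1. The planned count-based tests (edgeR and DESeq2 on recovered reads) were not run. With the length correction, log2 fold changes were -0.012 for AMOTL1, -0.020 for LATS2, -0.13 for TEAD1, 0.066 for AXL, -0.087 for FLNA and -0.032 for LATS1. With DMSO replicate 1 also left out they were -0.071 for TEAD1, 0.048 for AXL and -0.091 for FLNA. With quantile normalization they were -0.25 for CYR61, 0.32 for AXL, 0.21 for AMOTL1, 0.18 for YAP1 and 0.0066 for F3, and 5 of the 10 genes rose; with median centring YAP1 had 0.15, and without a trend AXL had 0.12, short of the test (limma, adjusted p = 0.0595). The cause of these shifts was not tested.

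Leaving out each library in turn, the log2 fold change ranged from 0.076 to 0.27 for AMOTL1, 0.11 to 0.13 for AXL, 0.023 to 0.13 for LATS2, -0.059 to 0.18 for TEAD1, 0.085 to 0.17 for YAP1 and -0.0049 to 0.20 for LATS1. The number of the 10 genes that rose ranged from 2 to 7, and the number that fell was 3 in each. The difference in log2 ratio ranged from -0.062 to 0.12 for AMOTL2 over AMOTL1, from -0.078 to 0.027 for LATS2 over LATS1 and from 0.17 to 0.53 for TEAD1 over TEAD4. In the same way, 7 to 17 of the Hippo list, 3 to 6 of the LIM and STRIPAK list, 2 to 5 of the coactivator list and 1 to 2 of the TAM list rose, and 5 to 8 of the further YAP targets and 2 to 4 of the coactivator list fell. Of these lists, 5 of the further YAP targets fell without a trend and with quantile normalization, 4 of the coactivator list rose and 2 fell with quantile normalization, 2 fell with median centring, 0 of the TAM list rose by limma without a trend (2 at an unadjusted p under 0.05) and 1 with the length correction, 5 of the coactivator list and 5 of the LIM and STRIPAK list fell with the length correction, and with DMSO replicate 1 left out and the length correction 5 of the coactivator list and 6 of the LIM and STRIPAK list fell. Genes higher and lower in the whole table numbered 3751 to 4876 and 4027 to 4933 across the alternatives.

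Nothing in the labels says whether libraries of the same replicate number in both groups were paired. The correlation of the deviations of same-numbered libraries from their group means was 0.121, 0.104 and 0.0514. Each DMSO library correlated best with its own number, a hint from the data and not from the design, but BRL-50481 replicate 3 correlated better with DMSO replicate 2 (0.0607). With the replicate number as a block, 4440 genes rose and 4589 fell, and 4 of the 10 genes rose, since YAP1 (0.12) passed the test (limma, adjusted p = 0.0376), while F3 did not (limma, adjusted p = 0.0516).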
